A study of Mus musculus with 4 samples.

Results

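The subject is the liver of YAP-KO mice 24 h after an acetaminophen overdose, set against the liver of YAP-KO mice at 0 h. Of the 4 arrays of the series, 2 carry this comparison, 1 for each time, and the other two are the wildtype arrays at the same times. Differences were taken for the 18480 genes kept out of 30783 named ones. A gene was kept when its brightest probe set had a mean over the 4 arrays of at least 4.32, the 40th percentile of named genes. Values are log2 levels, so a difference of 1 is 2-fold.

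The study measured liver RNA on expression arrays in male, fasted mice with and without the gene of YAP. The wildtype mice carried floxed YAP alleles, and the labels call the other mice YAP-KO. The 24 h mice had received 300 mg/kg acetaminophen by injection into the peritoneum, and each array held RNA pooled from 3 mice. Neither the Cre driver nor the deleted exons, nor the cells that lost the gene, are named in the labels. With 1 array in each group there was no replicate error, so sizes and counts are given with no p-value. A pool also hides the spread between mice. Neither genotype had an untreated array at 24 h among the samples used here, and the drug cannot be told apart from time of day, handling and feeding between 0 h and 24 h.

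YAP, encoded by Yap1, is a transcriptional coactivator held in check by the kinases of the Hippo pathway. It works with TEAD factors and is known for its part in liver growth and repair. Acetaminophen in excess is turned by cytochrome P450 enzymes of pericentral hepatocytes into a reactive metabolite that uses up glutathione and kills those cells. In the following days macrophages enter the dead zone and clear it, while the remaining hepatocytes divide and restore their metabolic genes.

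Yap1 read 7.54 in wildtype and 6.31 in YAP-KO liver at 0 h, and 8.24 and 6.01 at 24 h. It was lower in YAP-KO at both times, and the difference between 24 h and 0 h there was -0.30. The probe set may read transcript outside the deleted part. Wwtr1, which encodes the YAP paralog TAZ, read 5.82 at 0 h and 6.35 at 24 h in YAP-KO, a difference of 0.53, against 0.98 in wildtype.

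The samples read as liver. Of 25 measured hepatocyte identity genes, 8 were at the top of the scale on all arrays, among them Alb (albumin), Ttr (transthyretin) and Apoa1 (apolipoprotein A1). Lymphocyte markers were dim on every array, with a mean level of 4.57 over 6 measured markers in YAP-KO at 0 h and 4.59 at 24 h. The highest value was shared by many genes on each array (19.83 and 19.88 on the YAP-KO arrays). Values there were treated as saturated, and 75 of the genes kept were saturated on both YAP-KO arrays. The median level of the genes kept was 6.43 on the YAP-KO 0 h array and 6.58 on the 24 h array, a shift of 0.15 that was left in the values.

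In YAP-KO liver 872 genes were 2-fold or more higher at 24 h (4.72% of the genes kept) and 409 were 2-fold or more lower (2.21%). With each array centred on its own median the split became 579 higher and 586 lower, so the excess of higher genes depended on the scaling. The difference of a typical gene was small, with a median of 0.07 and 95% of genes between -0.95 and 1.23. Past 8-fold lay 27 higher and 15 lower genes, and past 16-fold lay 8 and 7. In wildtype 2337 genes (12.6%) were 2-fold higher and 1087 (5.88%) lower. Of the 872 higher genes, 534 were also 2-fold higher in wildtype, 68 were within 1.2-fold of no difference there and 2 were 2-fold lower. Of the 409 lower genes, 231 were also 2-fold lower in wildtype, 50 were within 1.2-fold and 26 were 2-fold higher. The share of all genes within 1.2-fold in wildtype was not computed, so the 68 and 50 are counts only. No test of a difference between the genotypes was possible, and the wildtype values below are given side by side with those of YAP-KO.

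**Figure D1:**
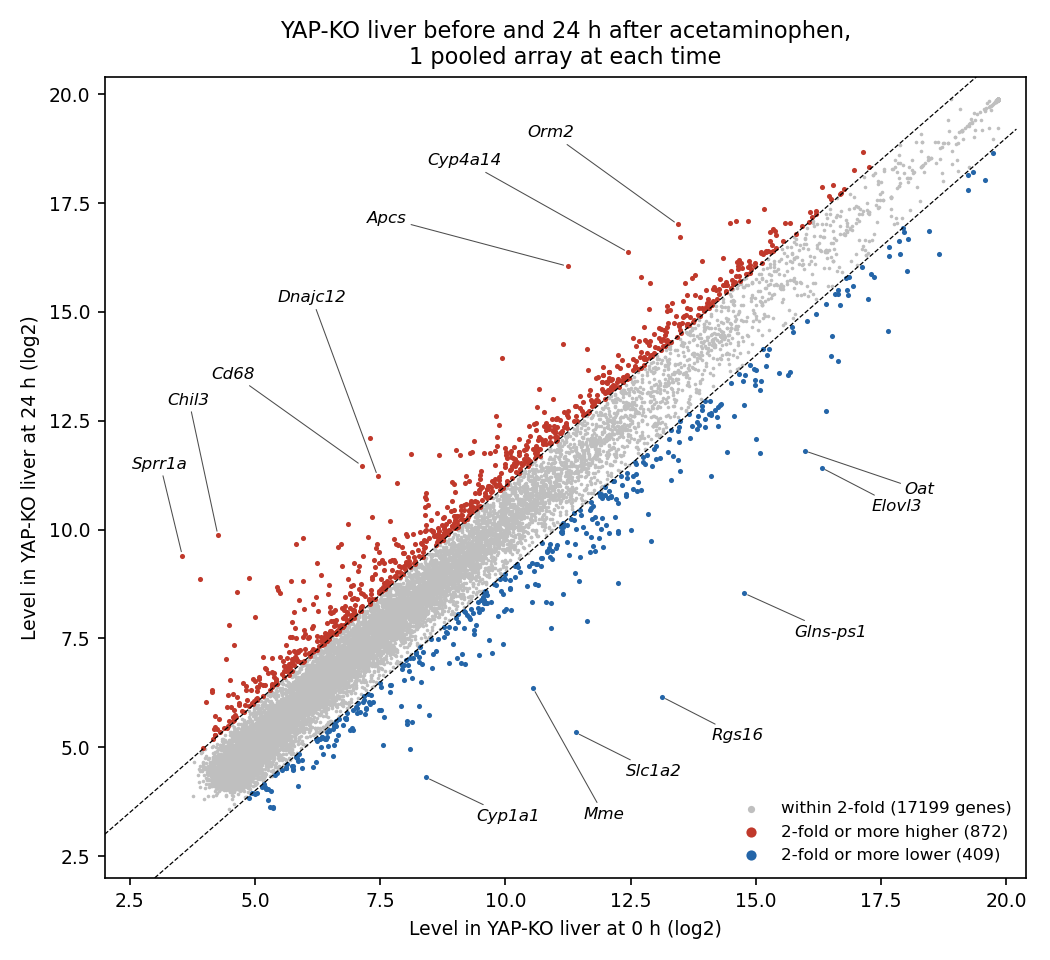
Log2 level of 18480 genes in YAP-KO liver at 0 h (horizontal axis) and at 24 h (vertical axis), 1 pooled array at each time. Dashed lines mark 2-fold, red points the 872 genes higher at 24 h and blue points the 409 lower, with 7 high and 7 low genes named from the largest differences.

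Genes of phagocytes, acute phase proteins and injured epithelium headed the higher side. Sprr1a, a cornified envelope gene switched on in stressed epithelia, was the highest of the named genes. It read 3.55 in YAP-KO at 0 h and 9.40 at 24 h, a difference of 5.85, and 2.87 and 8.77 in wildtype. Muc3, an intestinal type mucin gene, went from 4.65 to 8.57 in YAP-KO (3.92) and from 4.74 to 6.5 in wildtype. With the mean of its probe sets the YAP-KO difference was 1.775. Akr1b8, encoding an aldo-keto reductase of reactive aldehydes, was 3.12 higher in YAP-KO and 3.4 in wildtype. Hspa1a, an inducible HSP70 chaperone gene, was 3.16 higher and the surface protein gene Ly6d 3.23 higher. Nucb2, which encodes a calcium-binding precursor of the peptide nesfatin, was 3.27 higher in YAP-KO and 2.12 in wildtype. Prg4, the gene of the lubricating glycoprotein lubricin, was 3.11 higher in YAP-KO and reached 15.81.

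Recruited macrophage and phagocyte markers were higher almost throughout. Of 33 measured markers, 27 were 1.5-fold or more higher and 0 lower in YAP-KO, where the background over all genes was 13.5% higher and 6.01% lower at 1.5-fold. The list's median was 1.04 against 0.07 over all genes. Chil3, a chitinase-like secreted protein of alternatively activated macrophages, read 4.26 at 0 h and 9.87 at 24 h in YAP-KO, and 4.69 and 9.91 in wildtype. Cd68, a lysosomal glycoprotein of phagocytes, read 7.13 and 11.47 in YAP-KO and 7.16 and 11.49 in wildtype. Both genes thus reached nearly equal levels in the genotypes.

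Some other phagocyte genes had the larger difference in YAP-KO. Of all 33 markers 15 did. Clec7a, the receptor dectin-1 for fungal glucans, read 5.96 and 9.80 in YAP-KO, against 5.71 and 8.27 in wildtype. The monocyte surface gene Ly6c2 read 5.74 and 7.88 in YAP-KO, against 6.26 and 6.91 in wildtype. Mmp12, macrophage elastase, was 2.77 higher in YAP-KO and 2.15 in wildtype, and Lyz2, lysozyme, 2.57 and 2.26. Cd14, the endotoxin coreceptor, was the marker most unlike wildtype in the other direction: it read 5.68 and 6.39 in YAP-KO and 5.46 and 10.12 in wildtype. Over the 33 markers the mean level went from 6.49 to 7.89 in YAP-KO and from 6.50 to 8.12 in wildtype. In RNA of whole liver, more cells of a type cannot be told apart from more RNA per cell, and the same holds for losses.

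Chemokine genes that draw monocytes and eosinophils were among those higher. Ccl24, the eosinophil chemoattractant eotaxin-2, read 4.49 at 0 h and 7.80 at 24 h in YAP-KO and 4.58 and 4.94 in wildtype, so it stood high on 1 array of the 4. The monocyte chemoattractant genes Ccl2 (2.51) and Ccl7 (2.04) were higher in YAP-KO as in wildtype (2.64 and 1.55). Of 21 measured chemokine and receptor genes 11 were 1.5-fold higher and 2 lower, the lower being Cxcl9 (-1.43) and Cxcl13 (-0.90). Cxcl13, a B cell attractant, was 2.52 higher in wildtype. Lilrb4a, an inhibitory receptor of myeloid cells, was 3.22 higher in YAP-KO and 4.21 in wildtype.

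At 24 h the neutrophil markers with the largest differences stood below their wildtype level. S100a8 and S100a9, the subunits of calprotectin, read 7.59 and 7.70 in YAP-KO at 24 h after 6.0 and 5.98 at 0 h, and 10.06 and 9.33 in wildtype at 24 h. Over 11 measured neutrophil markers 4 were 1.5-fold higher in YAP-KO, with a median of 0.44, and 6 in wildtype, with a median of 1.84. In wildtype 3 were 1.5-fold lower and in YAP-KO 0, and 4 of the 11 had the larger difference in YAP-KO. Il1r2, the decoy receptor of interleukin 1, had a difference of -0.21 in YAP-KO and 2.52 in wildtype. Among 16 Kupffer cell markers 5 were higher and 3 lower, and their median was 0.18. Cd5l (2.08) and Marco (1.64), scavenger proteins of resident macrophages, were higher, with Cdh5 (1.70), Hmox1 (1.56) and Slc40a1 (0.67). Clec4f, the lectin specific to Kupffer cells, was lower (-0.70), with C6 (-1.26) and Cd163 (-0.59). In wildtype Clec4f was 0, C6 -2.99 and Cd163 0.46, and C6 read 14.96 in YAP-KO at 0 h. Among 17 interferon-stimulated genes 2 were higher and 2 lower, and their median was -0.11. The lower ones were Ifit3 (-1.30) and Iigp1 (-1.02). Lysosome and phagosome genes, which digest what macrophages take up, were 1.5-fold higher for 13 of 27 and lower for 0, with a median of 0.56. After Cd68 the highest were Lgmn, the protease legumain (2.05), Grn, progranulin (1.87), and Ctss, cathepsin S (1.5).

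Acute phase proteins, made by hepatocytes under cytokine control, divided into genes far above their 0 h level and genes that stayed. Apcs, serum amyloid P component, read 11.24 at 0 h and 16.05 at 24 h in YAP-KO, against 10.81 and 14.15 in wildtype. Orm2, an orosomucoid, read 13.44 and 17.01 in YAP-KO and 13.34 and 13.51 in wildtype. Its close paralog Orm1 went from 18.89 to the saturated value of 19.88, a difference of at least 0.99, and in wildtype its difference was -0.04. Lbp, the lipopolysaccharide-binding protein, read 12.79 and 14.36 in YAP-KO and stayed between 12.89 and 12.92 in wildtype. Saa1 and Saa2, serum amyloid A genes whose signals can overlap, were already high in YAP-KO at 0 h (14.49 and 13.48, against 10.52 and 9.17 in wildtype). They were a further 2.56 and 3.24 higher in YAP-KO at 24 h, while in wildtype they were -0.83 and -0.65. Lcn2, the iron-trapping lipocalin, ended at 11.74 in YAP-KO and 11.70 in wildtype from 8.11 and 5.43.

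Over the 24 measured acute phase genes 10 were 1.5-fold higher and 1 lower in YAP-KO, with a median of 0.34. The lower gene was Steap4, a metalloreductase, at 16.39 and 15.19. In wildtype 4 were higher and 4 lower. Complement and coagulation genes, also products of hepatocytes, were closer to their 0 h level in YAP-KO than in wildtype: 5 of 35 were higher and 4 lower with a median of 0.09, against 6 higher and 22 lower with a median of -0.82 in wildtype (background in wildtype 23.3% higher and 12% lower at 1.5-fold). Coagulation factor gene F11 was 1.23 higher in YAP-KO and lower in wildtype (-0.72).

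The endoplasmic reticulum (ER) is where secreted proteins are threaded through a membrane channel, trimmed, glycosylated and folded, and where failed ones are pulled back for degradation. Genes of trimming, glycosylation and degradation, and of the ER folding and secretion list, were mostly higher in YAP-KO at 24 h. Those of the membrane channel and of the prolyl isomerase families were less often past 1.5-fold. In the ER folding and secretion list, 19 of 25 were 1.5-fold higher and 1 lower, with a median of 0.81. In wildtype 8 were higher and 3 lower, with a median of 0.49, and 20 of the 25 had the larger difference in YAP-KO. Derl3, part of the channel that returns misfolded proteins to the cytosol, read 5.34, 5.49 and 5.29 on the wildtype 0 h, YAP-KO 0 h and wildtype 24 h arrays and 8.54 on the YAP-KO 24 h array. Sdf2l1, a component of an ER chaperone complex, read 9.01, 9.82 and 9.57 on the same 3 arrays and 12.6 on the YAP-KO 24 h array. Both stood apart on 1 array. Dnajc12, a J-domain cochaperone of aromatic amino acid hydroxylases, read 7.45 and 11.22 in YAP-KO and 6.87 and 9.25 in wildtype.

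The chaperone genes proper differed by less. Pdia6, a disulfide isomerase, read 13.78 and 15.40 in YAP-KO, and Hyou1, an ER nucleotide exchange chaperone, 12.12 and 13.45. Hspa5, the central ER chaperone BiP, read 16.47 and 17.25 in YAP-KO and 15.49 and 16.52 in wildtype, with differences of 0.78 and 1.03. Dnajc3, an inhibitor of the stress kinase PERK, was 1.29 higher in YAP-KO and 0.61 in wildtype. Xbp1, encoding a transcription factor of the unfolded protein response, was the one member lower by 1.5-fold or more. It went from 13.49 to 12.49 in YAP-KO, after a wildtype 0 h level of 11.67, and the array does not separate its spliced form. Ddit3, encoding the stress factor CHOP, was the highest of the integrated stress response list, reading 7.33 and 10.28 in YAP-KO and 7.23 and 8.63 in wildtype. That list had 8 of 19 higher and 0 lower, with a median of 0.34.

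A further 10 families of the secretory pathway were chosen after values of the ER list had been seen. By median, 6 of them had the larger difference in YAP-KO and 4 in wildtype (TMED receptors, cyclophilins and the COPI and COPII coats). Their 84 measured genes outside the ER list had a median of 0.71 in YAP-KO, with 50 higher by 1.5-fold and 2 lower, and a median of 0.63 in wildtype, with 44 higher and 4 lower. Subunits of oligosaccharyltransferase, which attaches sugar chains to nascent proteins, had the largest median of these families. Of 12 subunits 11 were 1.5-fold higher in YAP-KO, with a median of 1.30, and all 12 had the larger difference in YAP-KO. Ostc read 11.62 and 14.14 in YAP-KO and 11.54 and 12.39 in wildtype. Rpn1 read 13.22 and 15.13 in YAP-KO and 12.90 and 13.85 in wildtype. Magt1, a subunit of 1 form of the complex, was 0.82 higher in YAP-KO and lower in wildtype (-0.71). Tusc3 was the subunit with the smallest difference, at 0.47 in YAP-KO and 0.45 in wildtype.

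Of 5 measured genes of the Sec61 channel and its partners 1 was 1.5-fold higher in each genotype, Sec61a1 (1.29 in YAP-KO and 1.24 in wildtype), with medians of 0.50 and 0.25. Signal peptidase and the translocon-associated TRAP complex, which cut and guide the entering chain, were higher for 10 of 10 genes in YAP-KO (median 1.08) and for 6 in wildtype. The catalytic subunit gene Sec11c was 1.10 higher in YAP-KO and 0.24 in wildtype, whereas Ssr1 (1.54 and 1.57) and Ssr2 (1.87 and 2.0) were nearly equal between the genotypes. All 4 measured disulfide isomerases were higher in YAP-KO and 0 of them in wildtype, Pdia5 most unequally, at 1.55 against 0.11. Among 12 genes of ER-associated degradation 8 were higher in YAP-KO. In wildtype 2 were higher and 3 lower, the lower being Edem1 (-1.13), Sel1l (-0.76) and Derl2 (-0.60), which in YAP-KO were 0.55, 0.86 and 0.66 higher.

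Vesicle coat genes were less unequal. COPI coat genes, for traffic back from the Golgi, had 10 of 15 higher and a median of 0.77, against 8 and 0.79 in wildtype. COPII genes, for export from the ER, had 5 of 13 higher and 1 lower with a median of 0.52, against 7 higher and 0.65. TMED cargo receptors had 4 of 7 higher in YAP-KO with a median of 0.67, and 6 of 7 with a median of 1.08 in wildtype. Tmed3 had the larger value in YAP-KO (2.43 against 0.85). Of 11 FKBP prolyl isomerases 3 were higher and 1 lower in YAP-KO, with a median of 0.30. In wildtype 4 were higher and 2 lower, with a median of 0.10. Fkbp11, a prolyl isomerase of secretory cells, was the highest of its family at 2.86 in YAP-KO and 1.88 in wildtype. Of 6 cyclophilins 3 were higher in each genotype, and the YAP-KO median was 0.485 against 0.67. Ppib, the ER cyclophilin, was the 1 member with the larger difference in YAP-KO and read 13.63 and 15.40 in YAP-KO and 13.93 and 13.84 in wildtype.

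**Figure D2:**
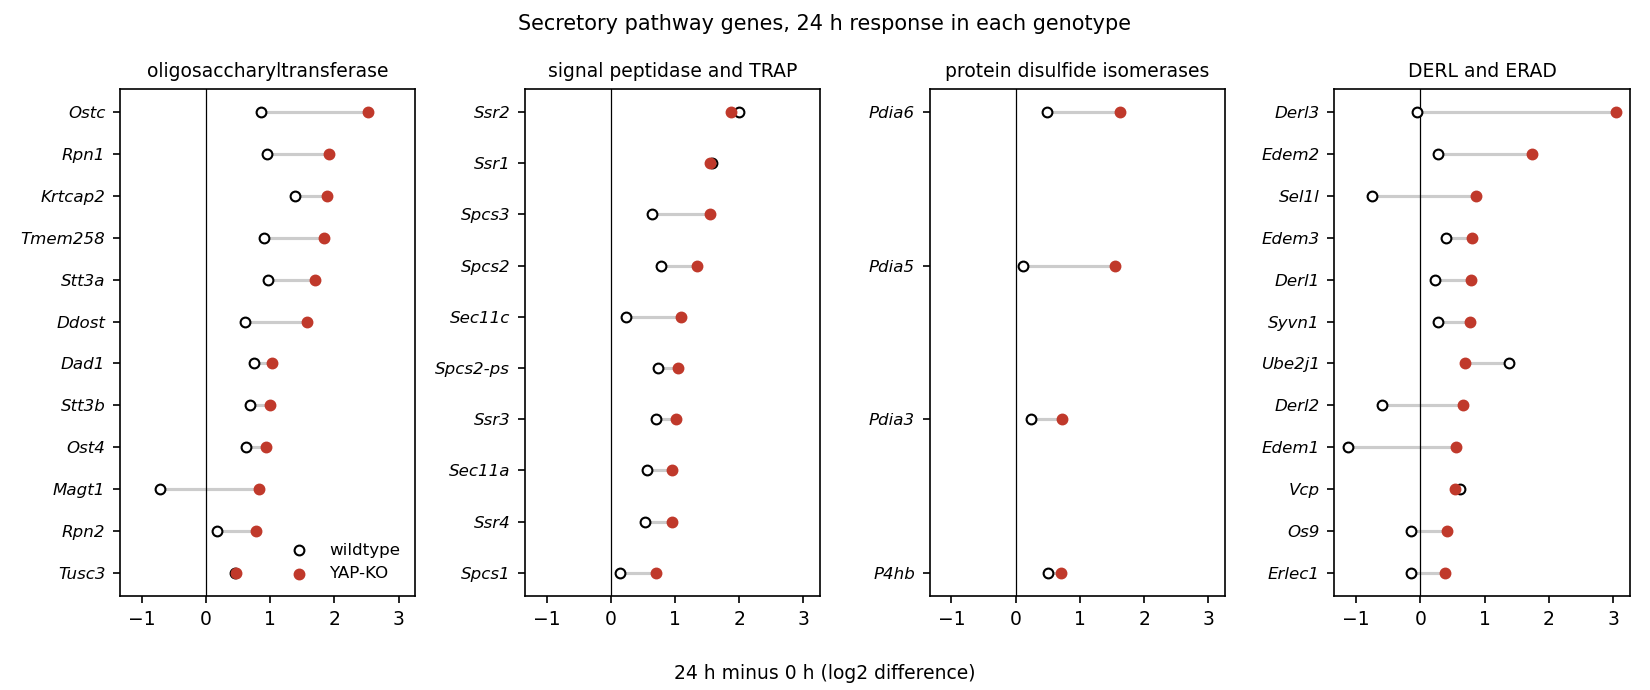
Log2 difference between 24 h and 0 h for each measured gene of 4 secretory pathway families, with wildtype as open circles and YAP-KO as red circles, 1 array per time and genotype. All 12 oligosaccharyltransferase subunits lie further right in YAP-KO, and in the degradation panel Derl3 lies at 3.05 against -0.05.

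Promoter sequence was then searched for 14 motifs, chosen after the values of the ER list had been seen. For that list the sequences of 1 of them are shown. The ER stress element, a CCAAT box followed after 9 bases by CCACG, is the site through which the unfolded protein response acts on chaperone genes. It was searched on both strands of the 250 bases before each gene's start, in the RefSeq promoters of mouse build GRCm38.p6. It was present in 35 of 27025 genes (0.13%) and in 20 of the 10794 matched genes kept (0.185%). Of the 25 ER list genes 20 had a promoter in that table, and 9 of them held the element. The plain CCAAT box was in 18 of the 20 and in 37.5% of all genes. The unfolded protein response element, searched as TGACGTGG, was in 1 of the 20 and in 0.603% of all. Below are the stretches around the ER stress element for genes spanning the range of differences. They are on the strand of the gene, with the element in capitals. A run starting CCAAT lies in the direction of the gene and a run ending ATTGG in the other direction.
Derl3, chr10:75893222-75893280, plus strand: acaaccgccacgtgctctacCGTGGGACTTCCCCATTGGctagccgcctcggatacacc
Pdia6, chr12:17266471-17266529, plus strand: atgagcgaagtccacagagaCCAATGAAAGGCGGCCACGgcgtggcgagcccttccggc
Dnajc3, chr14:118937807-118937865, plus strand: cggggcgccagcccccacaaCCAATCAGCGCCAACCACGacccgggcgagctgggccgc
Creld2, chr15:88819500-88819558, plus strand: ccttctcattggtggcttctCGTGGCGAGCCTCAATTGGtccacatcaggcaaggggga
Hspa5, chr2:34772005-34772063, plus strand: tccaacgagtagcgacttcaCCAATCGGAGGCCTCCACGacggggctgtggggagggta
Syvn1, chr19:6046512-6046570, plus strand: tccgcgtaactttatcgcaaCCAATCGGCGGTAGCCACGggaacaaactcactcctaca
Canx, chr11:50325780-50325838, minus strand: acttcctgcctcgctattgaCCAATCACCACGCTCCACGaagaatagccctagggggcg
Acacb, chr5:114165411-114165469, plus strand: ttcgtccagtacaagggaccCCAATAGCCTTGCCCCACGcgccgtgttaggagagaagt

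Genes with the same element differed widely in YAP-KO. Of the 20, 11 were 1.5-fold higher and 2 lower, with a median of 0.76, and in wildtype 6 were higher and 4 lower with a median of 0.04. Within the ER list the differences ran from 3.05 for Derl3 through 1.62 for Pdia6, 0.77 for the ubiquitin ligase gene Syvn1 and 0.74 for Hsp90b1, which holds 2 copies, to 0.29 for the lectin chaperone gene Canx. For the 11 genes outside the list the median was 0.09, and 3 were higher and 2 lower. Acacb, an acetyl-CoA carboxylase gene, carries the element and read 8.62 and 7.21 in YAP-KO (-1.41). Acnat2, an acyltransferase gene, carries it as well and was 2.17 higher. Creld2 and the mannosyltransferase gene Alg12 share 1 element between them on opposite strands and were 1.27 and 1.36 higher. Of the other genes with the element, Xlr3a, Xlr3b and Xlr3c are near-identical copies that the array may not separate. The element's presence is a description of these letters and no evidence of binding.

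Cholesterol synthesis and uptake genes were higher too. Of 20 measured genes 15 were 1.5-fold higher and 0 lower in YAP-KO, with a median of 0.96, against 6 higher and 4 lower with a median of 0.36 in wildtype. Lss, which closes the sterol ring, read 8.45 and 10.57 in YAP-KO and 7.58 and 9.32 in wildtype. Fdps, making farnesyl diphosphate, read 13.10 and 14.6 in YAP-KO and 12.36 and 12.14 in wildtype. Sqle (1.49), Nsdhl (1.42), Hmgcs1 (1.38) and Msmo1 (1.37) followed, all enzymes of the same chain. Insig1, the ER brake on the pathway and itself a target of it, was 0.74 higher in YAP-KO and lower in wildtype (-1.05). Several members already stood higher in YAP-KO than in wildtype at 0 h, such as Idi1 at 15.28 against 13.98 and Hmgcs1 at 16.54 against 15.41. The sterol element, searched as TCACNCCAC, was in 1 of 16 matched promoters (Hmgcs1) and in 1.22% of all.

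Many genes of the cell skeleton, and a smaller share of matrix and stellate cell genes, were higher. Of 23 actin and SRF target genes 15 were higher and 0 lower, with a median of 0.75 against 1.62 in wildtype. Stellate cell and smooth muscle markers had 6 of 15 higher and 2 lower, around a median of 0.29, against 9 and 1 around 0.66 in wildtype. The lower markers were Colec11 and Reln (both -0.95). Acta2, smooth muscle actin and the marker of activated stellate cells, read 6.71 and 9.67 in YAP-KO and 6.80 and 9.87 in wildtype. Tagln (2.65), Flna (2.02) and Tagln2 (2.01) were next. Vim, the mesenchymal filament vimentin, was 2.5 higher. Extracellular matrix genes had 14 of 31 higher and 2 lower, around a median of 0.34, against 19 and 0 around 0.66 in wildtype. The lower genes were Lum (-0.66) and Col14a1 (-0.60). Tnc, tenascin C, a matrix protein of wounds, read 4.88 and 8.88 in YAP-KO and 4.83 and 8.94 in wildtype. Thbs1, thrombospondin 1, was 3.86 higher in YAP-KO and 7.17 in wildtype. Fn1, fibronectin, was 1.32 higher against 0.64.

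Collagen genes did not follow. Of 24 measured members of the Col family 1 was 1.5-fold higher and 1 lower, with a median of -0.07. The family was dim, with mean levels of 5.36 at 0 h and 5.35 at 24 h in YAP-KO, which limits what can be read. Among matrix metalloproteinases 5 of 9 were higher, with Mmp3 (1.5) and Mmp14 (1.14) after Mmp12. Of 11 tubulin genes 4 were higher and 1 lower, and the lower one, Tubb2a, read 13.06 and 12.33 in YAP-KO and 10.41 and 15.81 in wildtype. Anxa2, a membrane-binding annexin, read 6.23 and 9.23 in YAP-KO and 5.93 and 11.73 in wildtype. YAP/TAZ targets had 7 of 25 higher and 1 lower with a median of 0.24, against 14 higher and 0.85 in wildtype. Ankrd1 (2.98), Ccn1 (2.22) and Ccn2 (1.96) were higher in YAP-KO, and Igfbp3 was lower (-0.95). The keratins Krt8 and Krt18 of hepatocytes were 1.91 and 2.05 higher in YAP-KO, from 14.34 and 13.72, and ended at 16.25 and 15.77 against 18.51 and 18 in wildtype.

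**Figure D3:**
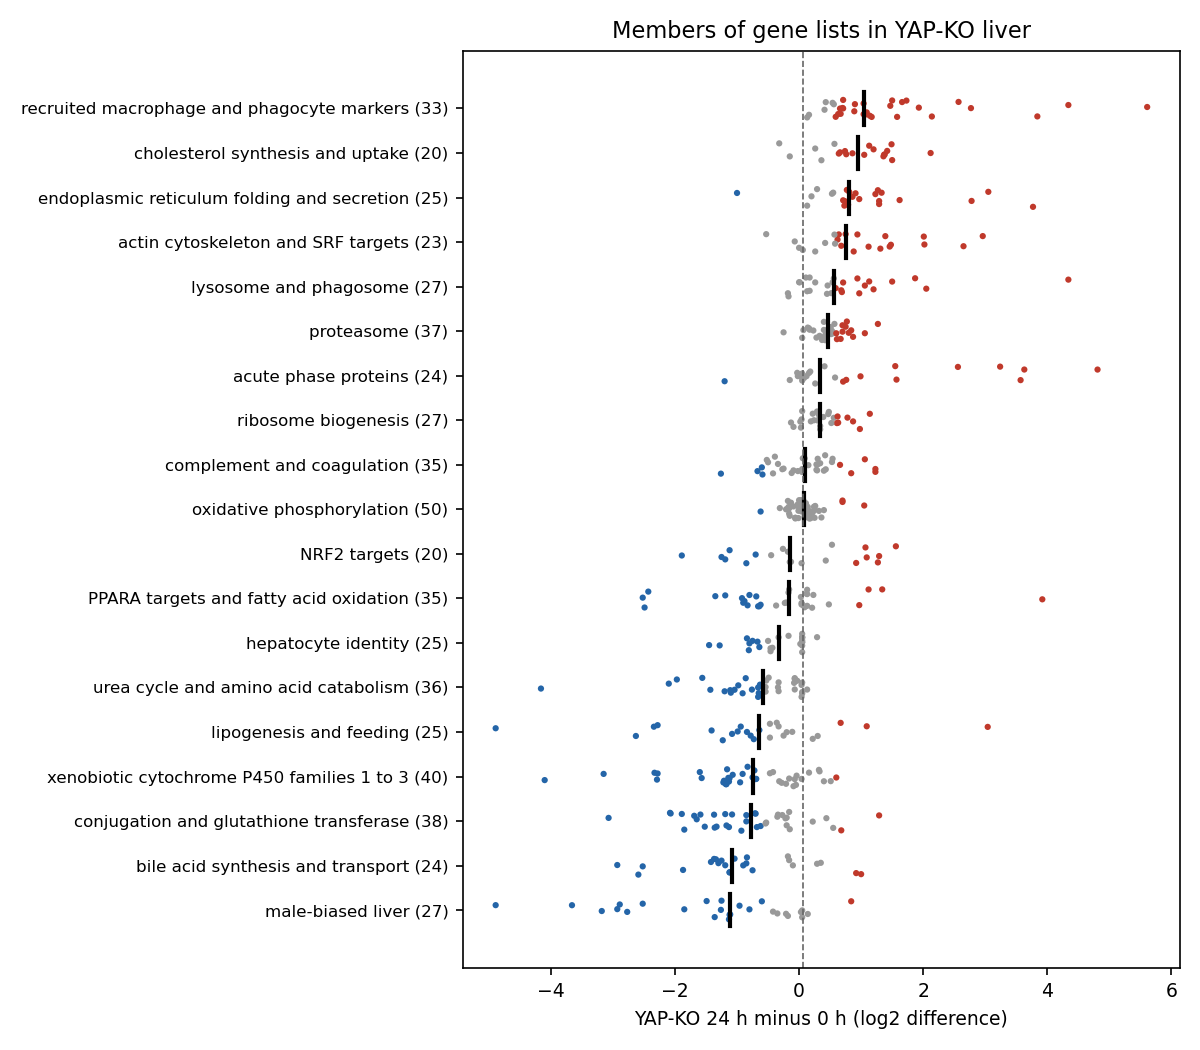
Each point is 1 measured gene of a list, placed by its log2 difference between 24 h and 0 h in YAP-KO liver, with the number of genes in brackets. Red and blue mark 1.5-fold or more higher and lower, thick bars the list medians (1.04 for macrophage markers, -1.12 for male-biased genes) and the dashed line the median of all genes, 0.07.

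Some groups that were above their 0 h level in wildtype stood closer to it in YAP-KO. Ribosome biogenesis genes, which build the subunits of ribosomes in the nucleolus, were 1.5-fold higher for 7 of 27 with a median of 0.34, against 25 of 27 with a median of 1.84 in wildtype. Nucleolin, from Ncl, read 11.12 and 12.26 in YAP-KO and 11.2 and 14.42 in wildtype, and 0 of the 27 genes had the larger difference in YAP-KO. Nop58, a core protein of nucleolar RNA particles, read 11.47 and 11.66 in YAP-KO and 9.71 and 14.27 in wildtype. By median the list began 0.27 above wildtype in YAP-KO at 0 h. Against wildtype at 0 h, 14 of the 27 were 1.5-fold higher in YAP-KO at 24 h, with a median of 0.61. The ribosomal protein genes themselves (Rpl and Rps, 36 measured) were higher for 22 and lower for 0, with a median of 0.68 against 1.04 in wildtype, Rpl41 (1.57) and Rpl12 (1.54) being highest. Aminoacyl-tRNA synthetases, which load amino acids on tRNA, were higher for 8 of 15 in YAP-KO, with a median of 0.78. In wildtype 12 of 15 were higher, with a median of 1.24. Rars (1.25) and Gars (1.15) led in YAP-KO.

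NRF2 targets, the antioxidant genes called up by electrophiles, divided evenly: 6 of 20 were higher and 6 lower in YAP-KO, with a median of -0.14, against 12 and 6 with a median of 1.51 in wildtype. Hmox1, heme oxygenase, read 8.4 and 9.96 in YAP-KO and 7.39 and 12.68 in wildtype. Gclc, the rate-limiting enzyme of glutathione synthesis, read 16.63 and 15.51 in YAP-KO and 15.70 and 18.61 in wildtype. Gsta2 (1.29), Slc7a11 (1.27), Nqo1 (1.09), Pgd (1.07) and Abcc4 (0.92) were higher. The other lower genes were Gstm3 (-1.89), Ugdh (-1.25), Gstm2 (-1.19), Gsta4 (-0.85) and Gstm4 (-0.70).

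Hypoxia and immediate early genes were by median close to their 0 h levels in YAP-KO. Hypoxia and glycolysis genes had 4 of 22 higher and 3 lower, with a median of 0.25 against 0.83, and Adm, adrenomedullin, read 4.79 and 5.43 in YAP-KO and 4.48 and 11.21 in wildtype. Pkm, pyruvate kinase M, was 2.13 higher and Bnip3 was lower (-1.16). Immediate early genes had 3 of 18 higher and 4 lower, with a median of -0.01 against 1.58. Klf6 (1.65) and Jun (1.60) were higher, and Klf2 (-0.97), Dusp1 (-0.92), Klf10 (-0.72) and Myc (-0.63) lower. Tnfrsf12a, the TWEAK receptor named here for its wildtype value, read 9.37 and 9.62 in YAP-KO and 6.02 and 14.03 in wildtype. Genes of DNA replication had 7 of 29 higher and 2 lower with a median of 0.31, and 0 of 9 measured mitosis genes differed 1.5-fold in either direction. These 9, of 22 listed, were dim, with mean levels of 4.70 at 0 h and 4.77 at 24 h in YAP-KO. That is close to the filter level of 4.32, so the count says little about mitosis.

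On the lower side the named genes with the largest differences were metabolic genes of hepatocytes. Rgs16, a regulator of G protein signalling in periportal cells that follows fasting and feeding, read 13.12 and 6.16 in YAP-KO (-6.96) and 11.77 and 8.68 in wildtype. Slc1a2, a glutamate transporter of the hepatocytes around the central vein, read 11.4 and 5.34 in YAP-KO and 11.92 and 4.32 in wildtype. Oat, ornithine aminotransferase of the same cells, read 15.97 and 11.81 in YAP-KO and 16.63 and 10.4 in wildtype. Glns-ps1 is annotated as a glutamine synthetase pseudogene and read 14.76 and 8.54 in YAP-KO, and the array may not separate it from its parent gene. Mme, the peptidase neprilysin, read 10.55 and 6.36. Gpcpd1, a glycerophosphocholine phosphodiesterase gene, read 12.24 and 8.77 in YAP-KO and 11.19 and 10.06 in wildtype. Etnppl, a phospholyase of phosphoethanolamine, was lower in YAP-KO (-3.74) and in wildtype (-2.88), and so was Inmt, an amine methyltransferase gene (-2.64 and -5.61).

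Male-biased genes, held high in male liver by pulses of growth hormone, were the list with the lowest median. Of 27 measured genes 18 were 1.5-fold lower and 1 higher in YAP-KO, with a median of -1.12, against 20 and 0 with a median of -2.10 in wildtype. Elovl3, a fatty acid elongase, read 16.31 and 11.42 in YAP-KO and 16.47 and 10.21 in wildtype. Nudt7, a peroxisomal coenzyme A hydrolase, read 16.39 and 12.73, against 16.41 and 9.76. With the mean of its probe sets the YAP-KO difference of Nudt7 was -2.953. Hsd3b5, a steroid dehydrogenase of male liver, read 14.11 and 11.22 in YAP-KO and 14.78 and 6.94 in wildtype. Keg1 (-3.18), Cyp7b1 (-2.93) and the near-identical pair Cyp4a12b (-2.77) and Cyp4a12a (-2.52) were also lower. The member that was higher was the complement gene C8a (0.84). Female-biased genes were lower too, for 12 of 20, with a median of -0.74, so genes of both biases were lower. Cyp2b9 read 8.10 and 4.95 in YAP-KO and 7.81 and 6.60 in wildtype, and Cyp4a14, a fatty acid hydroxylase, was the exception at 3.92 higher. Cyp4a14 started lower in YAP-KO (12.45 against 15.27) and ended lower (16.37 against 19.35).

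Bile acid synthesis and transport genes were lower for 17 of 24 and higher for 2, with a median of -1.08 against -2.13 in wildtype. Cyp7a1, which catalyses the first and limiting step from cholesterol, read 10.90 and 8.31 in YAP-KO and 10.50 and 5.04 in wildtype. Cyp8b1, which sets the share of cholic acid, read 12.50 and 9.98 in YAP-KO and 12.90 and 8.72 in wildtype. Cyp7b1, of the alternative route, read 15.0 and 12.07. Abcb11, encoding the canalicular pump of bile salts, was lower (-1.87), and the uptake transporter genes Slco2b1 (-1.42) and Slc10a1 (-1.37) were lower as well. Fgfr4, the hepatocyte receptor through which the gut hormone FGF15 represses Cyp7a1, was 1.0 higher, and Abcc4, an alternative bile acid exporter, 0.92 higher. Nr0b2, encoding the repressor SHP, read 8.54 and 8.83 in YAP-KO and 8.32 and 6.22 in wildtype.

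The enzymes of drug metabolism were lower in both phases. Cytochrome P450 genes of families 1 to 3 were lower for 23 of 40 and higher for 1, with a median of -0.74. Cyp1a2, a major P450 of drug oxidation in the pericentral zone, read 18.65 and 16.32 in YAP-KO and 18.10 and 12.89 in wildtype. Cyp1a1 read 8.41 in YAP-KO at 0 h and 4.31 at 24 h, and 4.47 and 4.15 in wildtype, so its difference of -4.10 rests on the YAP-KO 0 h array. Cyp2c55 (-2.29), Cyp2c38 (-2.28) and Cyp2c37 (-1.60) were lower with Cyp2b9, and Cyp3a13 was 0.60 higher. Cyp2e1, a main activator of acetaminophen, was at or near the top of the scale in YAP-KO at both times (19.83 and 19.87). Conjugation and glutathione transferase genes were lower for 23 of 38 and higher for 2, with a median of -0.78. Ugt2b1, a glucuronosyltransferase, read 17.64 and 14.57 in YAP-KO and 17.91 and 14.52 in wildtype. Sult2a8 (-2.08), Ugt2a3 (-2.07), Gstm3 (-1.89), Ugt2b38 (-1.85) and Ugt2b35 (-1.69) followed, and Gsta2 (1.29) and the estrogen sulfotransferase gene Sult1e1 (0.68) were higher. Of 10 Ugt genes 9 were lower, and some Ugt2b members are close copies.

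Urea cycle and amino acid genes were lower for 18 of 36 and higher for 0, with a median of -0.59 against -1.51 in wildtype. Behind Oat came Cth, cystathionine gamma-lyase (-2.10), Prodh, proline dehydrogenase (-1.97), Got1 (-1.56), Hal, histidase (-1.43), and Sardh (-1.2). Cps1 and Tat were saturated or close to it, so no difference is read from them. Hepatocyte identity genes had 8 of 25 lower and 0 higher, and the lower ones included the transcription factor genes Hnf4a (13.09 and 11.64 in YAP-KO) and Cebpa (12.78 and 11.50). Of 50 respiratory chain genes 3 were higher and 1 lower, around a median of 0.08.

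Genes set by feeding and fasting moved in more than 1 direction. Lipogenesis and feeding genes were lower for 13 of 25 and higher for 3, with a median of -0.64. Me1, malic enzyme, read 14.42 and 11.79 in YAP-KO, Mlxipl, the carbohydrate-sensing factor ChREBP, 11.95 and 9.61, and Thrsp 12.25 and 9.97. The 3 higher genes were Angptl8 (3.04), Agpat2 (1.09) and Ppp1r3c (0.67). Angptl8, a hormone of the fed state that redirects triglyceride, read 8.67 and 11.71 in YAP-KO and 8.37 and 7.26 in wildtype. Fasting-induced genes were lower for 11 of 23 and higher for 1, the kinase gene Sik1 (0.65), with a median of -0.37. Lpin1, a phosphatidate phosphatase and coactivator gene, read 15.09 and 11.76 in YAP-KO and 14.91 and 8.41 in wildtype, and Angptl4, an inhibitor of lipoprotein lipase induced by fasting, read 12.06 and 9.92 in YAP-KO and 12 and 13.28 in wildtype. Genes of PPARA and fatty acid oxidation were lower for 14 of 35 and higher for 4, the higher being Cyp4a14, Cyp4a31 (1.34), Cyp4a32 (1.12) and Acot2 (0.97). Cyp4a31 and Cyp4a32 began 1.66 and 1.5 below wildtype in YAP-KO, and against wildtype at 0 h they were -0.32 and -0.38, with 1 of the 35 genes then higher and 16 lower. Acaa1b, a peroxisomal thiolase, read 12.84 and 10.35 in YAP-KO and Fitm1, a fat storage protein gene, 8.04 and 5.61. Clock genes had 2 of 20 higher and 6 lower, with Nr1d1 (-2.47) and Dbp (-1.29) lowest.

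A set of 21 measured genes known to answer to FOXO factors, put together after single values had been seen, was lower for 13 and higher for 1 in YAP-KO, with a median of -0.78. As members were chosen with values known, the counts of this set are a description and cannot serve as support. FOXO factors are held out of the nucleus by insulin signalling, whose activity was not tested here. In wildtype 9 were lower and 7 higher, with a median of -0.11. Txnip, thioredoxin-interacting protein, read 11.75 and 9.63 in YAP-KO and 12.17 and 13.22 in wildtype. Depp1, an autophagy regulator gene, read 9.14 and 7.15 in YAP-KO and 9.25 and 9.31 in wildtype. Arrdc3, an arrestin domain gene, was lower in YAP-KO (-2.13) and in wildtype (-0.62). Others were lower in both, such as Gabarapl1 of the autophagosome (-2.34 in YAP-KO and -2.09 in wildtype), Ulk1 (-1.93 and -1.79) and Klhl24 (-2.07 and -3.42). G6pc and Pck1, also members, were further below 0 in wildtype, at -6.6 and -2.43, against -1.93 and 0.05 in YAP-KO. For 5 of the 21 genes the YAP-KO difference lay above the wildtype one. The fasting hormone binding gene Igfbp1 and the kinase gene Pdk4 were -0.27 and -0.66 in YAP-KO and 4.22 and 4.28 in wildtype. Igfbp1 already read 14.92 in YAP-KO at 0 h against 12.31 in wildtype, so its YAP-KO 24 h level was 2.34 above wildtype at 0 h, and that of Pdk4 0.03 above. Cdkn1b was the member that was higher, at 0.80. Over 31 autophagy genes, also grouped after values were seen, the median was 0.00 with 3 higher and 6 lower.

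Genes 2-fold or more in opposite directions in the genotypes were 2 on the higher and 26 on the lower side of YAP-KO, 22 of the latter open to naming by the rule. Besides Angptl8, Slc3a1, a subunit of a cystine transporter, read 12.61 and 14.22 in YAP-KO and 12.56 and 11.31 in wildtype. Slc25a47, a mitochondrial carrier gene of hepatocytes, read 13.98 and 12.36 in YAP-KO and 14.02 and 15.11 in wildtype. These genes, with Angptl4 and Txnip, had like levels in both genotypes at 0 h. Others began from unlike levels. Il1r1, the interleukin 1 receptor, read 15.68 and 13.63 in YAP-KO and 12.04 and 13.64 in wildtype, and thus ended at 1 level. Ppl, periplakin of cell junctions, read 9.74 and 7.16 in YAP-KO and 6.45 and 10.04 in wildtype. Of the 26, 15 had a YAP-KO 0 h level 2-fold or more above wildtype at 0 h, and 12 were still above the wildtype 0 h level at 24 h. The 26 were picked partly through their YAP-KO 0 h values, and the share over all genes was not computed.

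**Figure D4:**
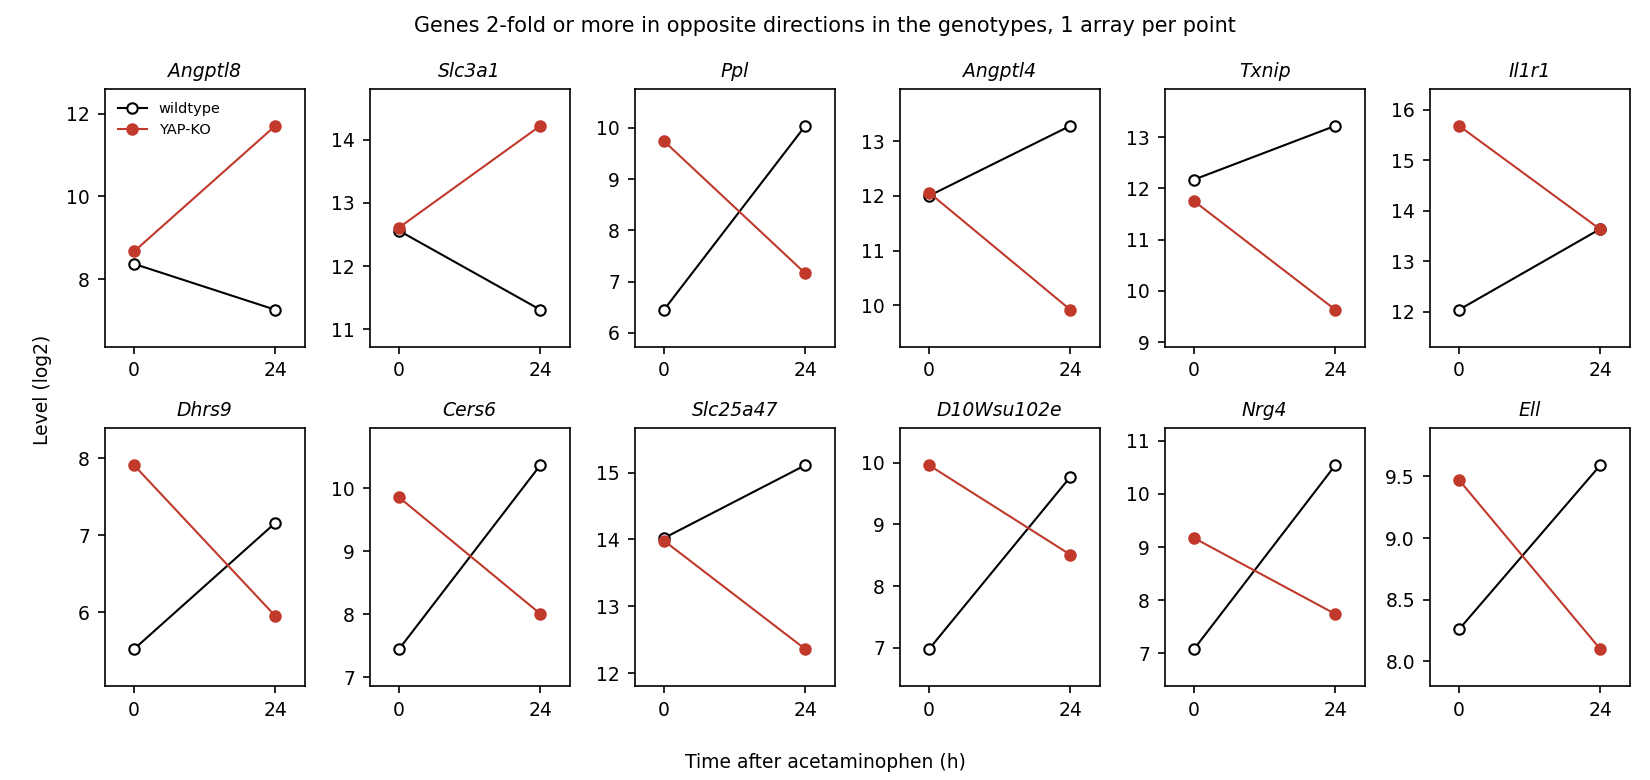
Log2 level at 0 h and 24 h of the 12 named genes that differed 2-fold or more in opposite directions, wildtype as open circles in black and YAP-KO in red, 1 array per point, with a vertical scale of its own in each panel. Angptl8 and Slc3a1 are higher at 24 h in YAP-KO, and the other 10 are lower, 6 of them from a 0 h level at least 2 log2 units above wildtype.

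Among the genes 2-fold higher in YAP-KO with wildtype within 1.2-fold of no difference, 40 were open to naming. Besides Orm2, Derl3, Ppib, Lbp, Pdia5 and Fdps, they were led by Fam25c (8.42 and 10.71 in YAP-KO), the tight junction gene Cldn1 (9.58 and 11.76), the cornified envelope gene Sprr2b (4.02 and 6.04) and the peptidase gene Dnpep (7.69 and 9.27). On the lower side 25 genes were open to naming. After Depp1 they were the myosin gene Myo1e (12.18 and 10.29), the noncoding RNA gene Lncpint (9.97 and 8.14), Lpin2 (11.38 and 9.67) and Got1. Next were Slc10a2, an ileal bile acid transporter (11.73 and 10.25), the phospholipid transfer gene Pltp (10.10 and 8.64) and Cxcl9. Slc25a51 (-1.30) and Dnmbp (-1.27) were also among them. Some of these differences rest on the YAP-KO 0 h level. Against wildtype at 0 h Slc10a2 turned to 0.83, having begun 2.31 above wildtype, and Myo1e was -0.61, Slc25a51 -0.57, Dnmbp -0.73, Pltp -0.79 and Cldn1 0.72.

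The YAP-KO 0 h array differed from the wildtype one before the drug, and so the YAP-KO 24 h array was also set against wildtype at 0 h. That comparison shares the YAP-KO 24 h array with the first. It gave 995 genes 2-fold or more higher (5.38%) and 561 lower (3.04%). Of the 872 genes higher against YAP-KO at 0 h, 596 (68.3%) were 2-fold higher against wildtype at 0 h too, and of the 409 lower genes 255 (62.3%). Of the 409, 56 had a YAP-KO 0 h level 2-fold or more above wildtype, and of the 872, 15 had one 2-fold or more below. Both sets were picked partly through their values on that array. The shares over all genes were not computed, so these are counts only. The ER list median was 1.64 against wildtype at 0 h and the cholesterol list median 1.68, both further from 0 than against YAP-KO at 0 h. The macrophage list (1.0), bile acid list (-1.18) and P450 list (-0.99) had the same sign against either array. The NRF2 list turned from -0.14 to 0.48. The hepatocyte identity median went from -0.33 to 0.02, which is the value that genes saturated on all arrays take in this comparison. Of its 25 genes 8 were saturated in this way, and against wildtype at 0 h 9 were 1.5-fold lower and 0 higher. The mean level of its other genes was 11.80 in wildtype at 0 h and 11.37 in YAP-KO at 24 h. Of the zinc-binding metallothioneins, Mt1 read 18.29 and 18.34 in YAP-KO and 13.6 in wildtype at 0 h, and Mt2 was saturated in YAP-KO at both times and read 13.58 in wildtype at 0 h.

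**Figure D5:**
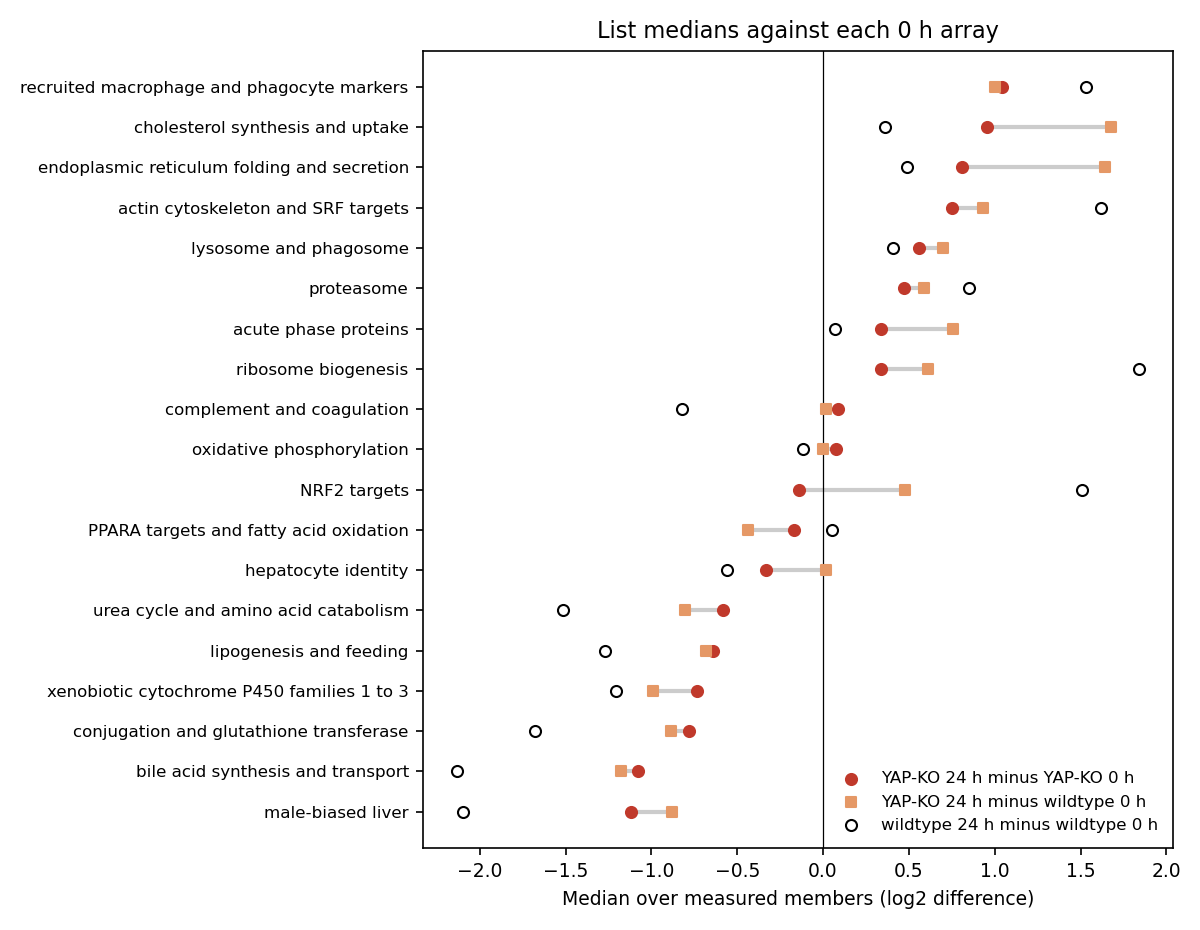
Median log2 difference over the measured members of 19 gene lists, for YAP-KO 24 h against YAP-KO 0 h (red circles), YAP-KO 24 h against wildtype 0 h (orange squares, which use the same 24 h array) and wildtype 24 h against wildtype 0 h (open circles). The ER and cholesterol lists lie furthest right against wildtype 0 h, at 1.64 and 1.68. The bile acid, P450, conjugation, male-biased, urea cycle and lipogenesis lists lie left of 0 for each comparison. The PPARA list lies at 0.05 in wildtype, and hepatocyte identity at 0.02 against wildtype 0 h.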

How the data were processed

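Biotin-labelled total RNA of mouse liver was hybridised to 4 single-channel arrays, 1 per genotype and time, each a pool of 3 mice, per the labels' protocols. The deposited table held log2 values for 65956 probe sets, a scale inferred from the values. Summarisation, background correction and normalization by the authors are not given in the sources used here, and no detection call or scanner file was used here.

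Probe sets were named through the platform annotation and mouse RefSeq (GRCm38.p6). Of them 31258 had 1 gene, 654 of these under several names, 1492 had several genes and 33206 had none, and the last 2 kinds were left out. For 366 genes with several probe sets the brightest was taken. Genes under the 40th percentile were left out (12303 genes, of which 8 were 2-fold higher and 41 lower in YAP-KO).

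Differences were computed with Python 3.11.15, pandas 2.3.3 and numpy 2.4.6 and counted at 2-fold for genes and at 1.5-fold for members of 51 gene lists and 54 families, with 15 families added after values were seen. The code was run on copies of 1 array without noise, with shifts past 2-fold added to some genes. Their recovery was fixed in advance, so this checks the arithmetic only. Precision is limited by the number of arrays. Values within 0.01 of an array's maximum were treated as saturated. Genes were named by rule: Yap1 and Wwtr1, the 20 highest and 20 lowest differences without predicted, RIKEN, receptor-segment and small RNA genes, for each list described, its top 6 members by size of difference and any that opposed its median, up to 10 genes per direction opposed in wildtype, and up to 10 with wildtype within 1.2-fold. Other named genes were chosen after their values were seen. The members and lists were chosen with earlier results of these data known. Replicate agreement and batches could not be examined with 1 array per group.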

Additional observations from a re-analysis of the deposited data

Results flagged for a closer look

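The following genes stood out because the single YAP-KO difference and the single wildtype difference lay 2-fold or more in opposite directions. The difference between the genotypes was not tested, since each group had 1 array. On the higher side of YAP-KO were Angptl8, at 3.04 against -1.11 in wildtype, and Slc3a1, at 1.61 against -1.25. On the lower side Ppl was -2.58 against 3.59, Angptl4 was -2.14 against 1.28 and Txnip was -2.12 against 1.05. Il1r1 was -2.05 against 1.60, Dhrs9 was -1.96 against 1.64 and Cers6 was -1.85 against 2.92. Slc25a47 was -1.62 against 1.09, D10Wsu102e was -1.45 against 2.79, Nrg4 was -1.43 against 3.46 and Ell was -1.37 against 1.33. Ppl, Il1r1, Dhrs9, Cers6, D10Wsu102e and Nrg4 began from YAP-KO 0 h levels 2.09 to 3.64 above wildtype, and Ell from a level 1.21 above it.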

How the results depend on the processing

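Of 297 values recomputed, a median or gene difference counted as kept when it moved by less than 0.585. A value smaller than 0.585 in size could change sign and still be kept. A count was kept when it changed by a ratio of at most 1.5, or when both counts were at most 1. All 297 were kept when a pair of names with 1 Entrez identifier counted as 1 gene (an alternative chosen after seeing the data). All were kept too when saturated genes were left out, 295 with the mean of a gene's probe sets, 294 after quantile normalization and 293 with no filter. With a 60th percentile filter 281 of the 288 left were kept. With each array centred 280 were kept. Centring moved every difference and median by the same 0.15, inside the tolerance, so only counts could fail. The count of genes higher by 2-fold was then 579, and the conjugation list had 1 member higher. At other thresholds the counts higher and lower were 2497 and 1111 (1.5-fold) and 93 and 56 (4-fold). With no filter the Ms4a family median turned to -0.04. With the wildtype 0 h array in place of the YAP-KO one, 239 of 297 were kept. The hepatocyte identity median passed within this tolerance although it went from -0.33 to 0.02. The ER list median became 1.64 and the cholesterol median 1.68, P450 and male-biased members higher became 2 and 2, and these genes reversed: Ppl 0.71, Il1r1 1.59, Dhrs9 0.43, Cers6 0.56, D10Wsu102e 1.53, Nrg4 0.66 and Slc10a2 0.83. The cause was not tested. No paired analysis was possible because each group has 1 array, all numbered replicate 1, and no replicate could be left out. Dim genes have no known floor here, and saturated ones give bounds.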
